A study of Mus musculus with 8 samples.

Results

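Liver RNA of Cpeb4 knockout and wild-type mice was sequenced, and the values of 9 genes of hepcidin and iron handling are described here. They are the hepcidin genes Hamp and Hamp2, the regulators Hfe, Tfr2 and Tmprss6, the iron exporter gene Slc40a1, the iron importer gene Tfrc, and the ferritin genes Fth1 and Ftl1. They were taken by symbol and matched by Ensembl identifier. The rule uses no measured value, but the genes were chosen with earlier results of these data known. All 9 were present among the 23634 genes of one deposited table (the larger table) and the 21201 genes of the other (the smaller table), and all 9 were among the 14180 and 11661 genes that the authors tested. CPEB4, the protein that the knockout lacks, binds cytoplasmic polyadenylation elements in mRNAs and sets their poly(A) tail length and translation.

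The series holds 8 libraries in 4 groups of 2: Cpeb4 knockout purified endoplasmic reticulum (ER), Cpeb4 knockout total liver, wild-type purified ER and wild-type total liver. ER was isolated from livers of mice that had fasted overnight, while the labels say nothing of the feeding state behind the total liver RNA, of the strain, age and sex of the mice, or of how the knockout allele was made and in which cells it acts. Each deposited table is the authors' comparison of 1 preparation, but neither names its preparation, so neither is called ER or total liver here.

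Hepcidin is a peptide hormone that hepatocytes secrete. It binds ferroportin, the iron exporter that Slc40a1 encodes, and causes its breakdown, so iron stays inside macrophages, hepatocytes and the cells of the gut lining. Hamp transcription is driven by bone morphogenetic protein (BMP) signals through SMAD proteins, with help from hemojuvelin, HFE and transferrin receptor 2 on the hepatocyte surface, and by interleukin 6 through STAT3. The protease matriptase-2, which Tmprss6 encodes, lowers hepcidin by cutting hemojuvelin. Mice carry a second hepcidin gene beside Hamp, Hamp2, whose product does not act on iron as that of Hamp does. Transferrin receptor 1, from Tfrc, brings in iron bound to transferrin, and the ferritin chains from Fth1 and Ftl1 store it. Iron regulatory proteins bind iron-responsive elements, short hairpins in the untranslated regions (UTRs) of these last mRNAs: in the 5' UTR they hold back translation, and in the 3' UTR of Tfrc they protect the mRNA.

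The promoters of the hepcidin genes are shown first because Hamp and Hamp2 were the members that passed the authors' test, and because the genes are close copies of each other. Both lie on the minus strand of GRCm38 chromosome 7, Hamp (ENSMUSG00000050440) at chr7:30942368-30944032 and Hamp2 (ENSMUSG00000056978) at chr7:30922372-30924681, and both are protein coding. The 250 bases before each RefSeq start (GRCm38.p6, chr7:30944030-30944279 for Hamp and chr7:30924182-30924431 for Hamp2) were identical at 227 of 253 aligned positions, or 89.7%. All of the Hamp2 window lies inside the GENCODE span of that gene given above, which starts further upstream than the RefSeq start. Capitals mark matches, on either strand, to GGCGCC, the core of the BMP-responsive element, and to TTCNNNGAA, a STAT site, which did not overlap each other.
Hamp promoter: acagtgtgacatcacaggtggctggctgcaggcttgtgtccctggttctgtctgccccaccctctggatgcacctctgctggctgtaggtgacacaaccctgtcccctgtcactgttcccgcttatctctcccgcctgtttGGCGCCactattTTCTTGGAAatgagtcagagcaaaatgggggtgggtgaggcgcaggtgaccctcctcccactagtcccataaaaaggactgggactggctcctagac
Hamp2 promoter: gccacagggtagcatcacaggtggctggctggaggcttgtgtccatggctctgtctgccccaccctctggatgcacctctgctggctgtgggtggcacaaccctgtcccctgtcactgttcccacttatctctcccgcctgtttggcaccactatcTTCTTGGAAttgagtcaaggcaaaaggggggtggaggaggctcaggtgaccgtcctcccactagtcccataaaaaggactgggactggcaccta
The STAT site was in both, at base -97 of Hamp and -94 of Hamp2 from the RefSeq start. GGCGCC was at base -109 of Hamp and not in this window of Hamp2. Of 32851 mouse promoters of the same length, 9.59% held GGCGCC, 7.02% held TTCNNNGAA and 0.37% held both.

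The iron-responsive elements are shown because they divide the members into a group with such a hairpin in the mRNA and a group without. A script searched the annotated UTRs of GENCODE M21 for an unpaired C, 5 bases, the loop CAGTG with A, C or T after it, and 5 bases that pair with the first 5 (G with T allowed), the form of the ferritin element. Capitals mark the loop.
Fth1, 5' UTR: cttcaaCAGTGCttgaa
Ftl1, 5' UTR: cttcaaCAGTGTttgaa
Slc40a1, 5' UTR: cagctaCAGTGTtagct
Tfrc, 3' UTR: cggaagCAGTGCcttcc
Tfrc, 3' UTR: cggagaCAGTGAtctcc
Tfrc, 3' UTR: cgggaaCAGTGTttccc
Tfrc, 3' UTR: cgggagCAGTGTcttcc
Fth1, Ftl1 and Slc40a1 each held 1 match and Tfrc held 4, while Hamp, Hamp2, Hfe, Tfr2 and Tmprss6 held none. In all, 133 of 22527 genes with an annotated coding sequence, or 0.59%, held a match. Any of these without an annotated UTR are counted among those with no match.

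The authors' tables give per gene a mean count over 4 libraries, a moderated log2 fold change (drawn towards 0) and its standard error, but no value per library. Read counts per library were recovered from these printed digits for 98.6% and 98.3% of the searched genes of the larger and smaller table, as set out in the methods. The libraries are called A and B within a genotype, with A the shallower, and were not matched to labelled samples. Relative depth was 0.904 and 1.24 in the knockout and 0.717 and 1.26 in the wild-type libraries of the larger table, and 0.839 and 1.64 in the knockout and 0.839 and 0.870 in the wild-type libraries of the smaller. The normalised reads of a library averaged 37351703 (larger table) and 36848665 (smaller table). Cpeb4 had 580 and 506 normalised reads in knockout libraries A and B, against 1657 and 1511 in wild-type libraries A and B of the larger table, and 225 and 193 against 634 and 689 in the smaller. Neither table writes its direction. Cpeb4 had the smallest p of each, and its lower side was read as the knockout, so its value is no independent check of the labels.

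Libraries of the tables did not vary independently. Across 8995 genes with a mean of at least 100 in both tables, the log2 difference between knockout libraries B and A had a Pearson r of 0.72 between the tables, and that between wild-type libraries B and A had an r of -0.68, so wild-type library A of one table varied with B of the other. Genes are not independent replicates, and whether the same mice gave both preparations is not stated in the labels. A value seen in both tables is therefore not counted as seen in separate animals.

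Hamp and Hamp2 were higher in the knockout in the larger table and were the only members that passed the authors' test there. An adjusted p of 0.05 was passed by 42 of its 14180 genes, or 0.296%, and by 0.0917% as higher in the knockout. Hamp had 19920.3 and 19221 normalised reads in knockout libraries A and B, against 12854 and 14015 in wild-type libraries A and B. Both knockout libraries lay above both wild-type libraries, by more than either pair differed within itself. The ratio of the means was 1.46. In the authors' deposited table the moderated log2 fold change was 0.47 ± 0.08 (SE; 95% interval 0.30 to 0.63; DESeq2 Wald test, adjusted p = 5.17e-05), which ranked 10 among all tested genes by p.

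Hamp2, the neighbouring copy, also had both knockout libraries above both wild-type libraries in the larger table. It had 4377 and 4105 normalised reads in knockout libraries A and B, against 3200.2 and 3108 in wild-type libraries A and B, a ratio of 1.34. The authors' deposited table gave 0.36 ± 0.09 (95% interval 0.19 to 0.53, DESeq2 adjusted p = 0.0185). In bulk liver RNA, a change in the number of cells that express a gene and a change in its RNA per cell cannot be told apart.

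The smaller table had Hamp on the same side without a pass, and Hamp2 near equality. There 31 of 11661 genes passed, or 0.266%, and 0.163% passed as higher in the knockout. Hamp had 29803 and 34747 normalised reads in knockout libraries A and B, against 26097 and 21439 in wild-type libraries A and B. All 4 values kept the genotypes apart, but the 2 libraries of a genotype lay further apart than in the larger table. The ratio was 1.36, and the authors' deposited table gave a moderated log2 fold change of 0.35 ± 0.12 (95% interval 0.12 to 0.58, p = 0.0027, DESeq2 adjusted p = 0.342).

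Hamp2 in the smaller table had 1026 and 1091 normalised reads in knockout libraries A and B, against 950.3 and 1276 in wild-type libraries A and B. The knockout values fell between the wild-type values. The deposited log2 fold change was -0.05 ± 0.13 (95% interval -0.30 to 0.20, adjusted p = 0.999).

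The calls of Hamp and Hamp2 rested on the authors' model. When limma was run on the recovered counts, an alternative added after seeing the data, Cpeb4 alone passed in each table (0.00724% of 13813 and 0.00885% of 11302 genes), while 997 and 797 genes had an unadjusted p under 0.05. With it Hamp was 0.54 ± 0.09 higher on the log2 scale in the larger table (limma adjusted p = 0.325) and Hamp2 0.43 ± 0.08 higher (limma adjusted p = 0.333), so neither passed. Leaving out each library in turn gave 0.48 to 0.61 for Hamp and 0.38 to 0.47 for Hamp2 in the larger table, and 0.30 to 0.59 for Hamp in the smaller. For Hamp2 in the smaller table the sign rested on single libraries: the log2 difference was -0.06 with all 4 libraries, -0.27 without wild-type library A and 0.15 without wild-type library B.

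**Figure D1:**
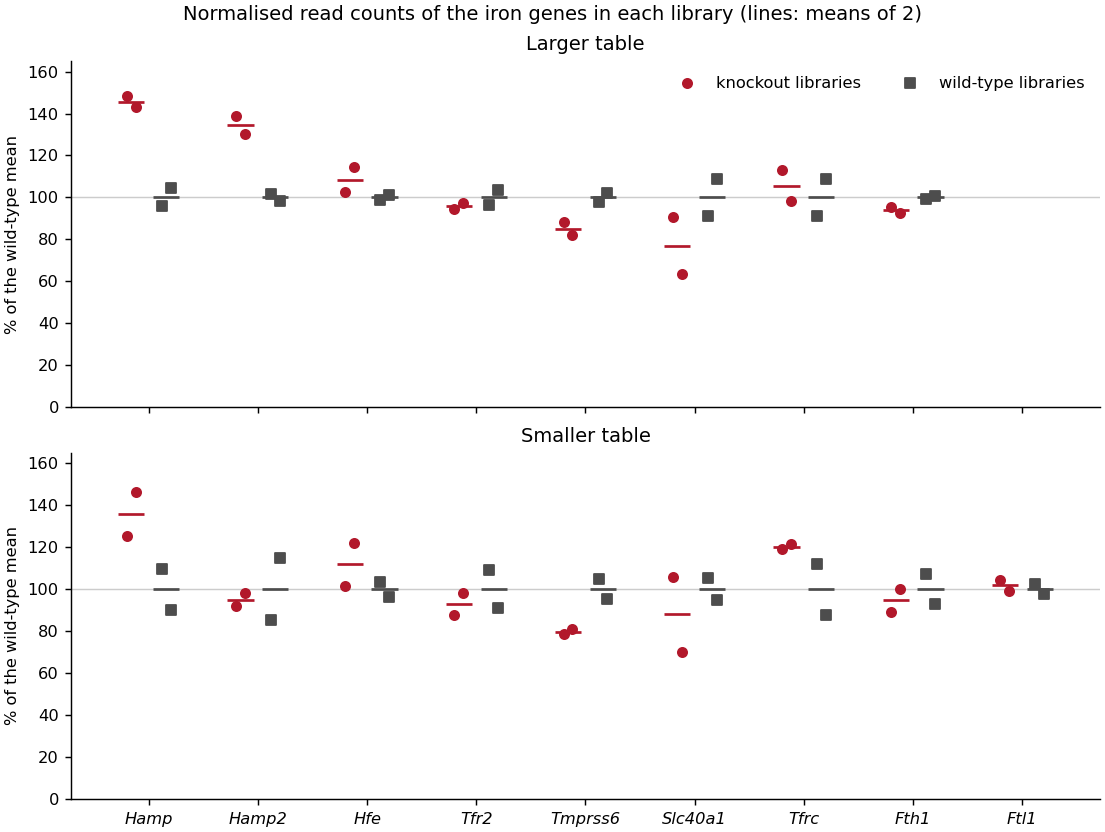
Normalised read counts of the 9 iron genes as a percentage of the wild-type mean of the same table (y axis), for each knockout library (red circles, A left of B) and wild-type library (grey squares, A left of B), with lines at the means of 2 libraries; Ftl1 of the larger table is not drawn because more than 1 set of counts matched its printed values. Hamp stands above the wild-type libraries in both tables and Hamp2 only in the larger one, and 1 knockout library holds the lowest Slc40a1 value of each table.

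The share of Hamp2 among hepcidin reads differed more between the tables than between the genotypes. In the larger table Hamp2 made up 18.01% (95% Wilson interval 17.5 to 18.5) and 17.6% (17.2 to 18.04) of Hamp and Hamp2 reads in knockout libraries A and B, against 19.9% (19.2 to 20.7) and 18.1% (17.6 to 18.7) in wild-type libraries A and B. In the smaller table the shares were 3.33% (3.12 to 3.55) and 3.04% (2.91 to 3.19) in the knockout, against 3.51% (3.28 to 3.76) and 5.62% (5.31 to 5.95) in the wild type. These intervals cover counting error only. In each table both knockout shares lay under both wild-type shares, but narrowly: the intervals of 18.01% and 18.1% overlap in the larger table, and those of 3.33% and 3.51% in the smaller, where wild-type library B stood apart at 5.62%.

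**Figure D2:**
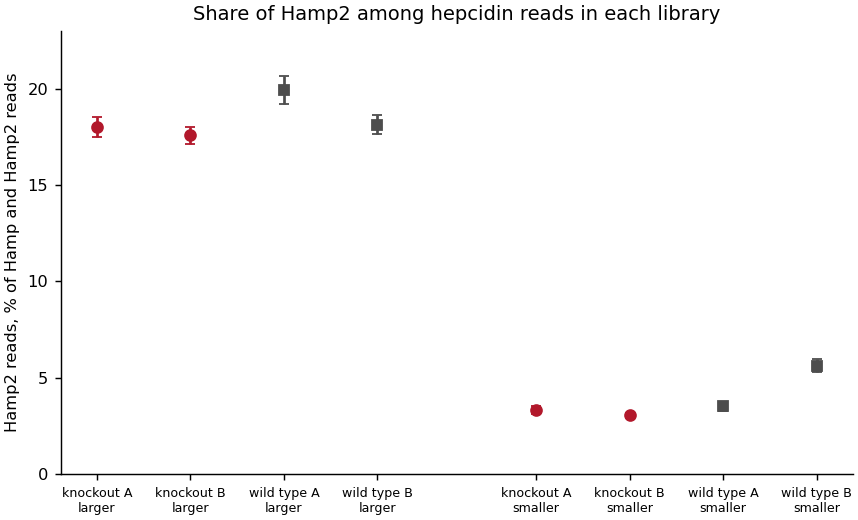
Hamp2 reads as a percentage of Hamp and Hamp2 reads (y axis) in each knockout library (red circles) and wild-type library (grey squares) of the larger and smaller table, with 95% Wilson intervals. The larger table's libraries lie at 17.6% to 19.9% and the smaller table's at 3.04% to 5.62%.

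The labels do not say how reads shared by the copies were counted. Of the 31-base words of Hamp, 33.7% also occur in Hamp2, and 23.1% of those of Hamp2 occur in Hamp. The split of reads between the 2 genes is thus uncertain. Their sum does not depend on that split for reads given to either gene. It averaged 23811 normalised reads in knockout and 16589 in wild-type libraries of the larger table, a ratio of 1.44, and 33333 in knockout and 24882 in wild-type libraries of the smaller, a ratio of 1.34. Relative to all reads, Hamp2 was 3.36 times as high in the larger table as in the smaller and Hamp 0.581 times. Among the other members, Tmprss6 (0% of words shared) was 2.31 times, Tfr2 (1.2%) 2.06 times and Ftl1 (64.1%) 2.09 times as high in the larger table. Over 11604 genes tested in both, 31.7% of those sharing over 25% of their words were more than 2 times as high in the larger table, against 11.1% of the others. What part shared sequence has in the Hamp2 share was not tested. Both genes also overlap the noncoding gene Gm44662 on the opposite strand, which is in neither table. It holds 11.4% of the words of Hamp2, so 34.5% of them occur in another annotated gene.

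The genes around the hepcidin pair did not pass. Upstream of Hamp on the chromosome lies Usf2, a transcription factor gene, with a log2 fold change of -0.05 ± 0.10 and -0.03 ± 0.12 in the authors' deposited larger and smaller table. Beyond it are Lsr, a lipoprotein receptor gene, at 0.08 ± 0.10 and 0.19 ± 0.14, and Fam187b at 0.01 ± 0.12 and 0.12 ± 0.14 in the deposited tables (DESeq2 adjusted p 0.999 or above for all 3). On the far side of Hamp2 lie Mag, Cd22 and Ffar1, with means of 10.01, 23.8 and 0.880 counts in the deposited larger table, too low for a test of Mag and Ffar1.

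Tmprss6, the gene of the protease that lowers hepcidin, was lower in the knockout libraries of both tables and did not pass in either. It had 7521 and 7006 normalised reads in knockout libraries A and B, against 8349 and 8734 in wild-type libraries A and B of the larger table. The smaller table had 2949.9 and 3037 in the knockout, against 3939 and 3574 in the wild type. Both tables kept the genotypes apart, with knockout means at 85.0% and 79.7% of the wild-type means. The authors' deposited log2 fold changes were -0.20 ± 0.09 in the larger table (95% interval -0.37 to -0.03, p = 0.0189, DESeq2 adjusted p = 0.956) and -0.27 ± 0.11 in the smaller (95% interval -0.48 to -0.05, p = 0.0167, DESeq2 adjusted p = 0.798).

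Hfe and Tfr2, whose products sense transferrin-bound iron on the hepatocyte, showed small differences. Hfe had 1108 and 1236 normalised reads in knockout libraries A and B, against 1069 and 1091 in wild-type libraries of the larger table, and 782 and 936 against 796 and 741 in the smaller. The genotypes overlapped in the smaller table, and the knockout libraries lay just above the wild type in the larger, where the deposited log2 fold change was 0.09 ± 0.10 (95% interval -0.11 to 0.29). Tfr2 had 10134 and 10446 in knockout libraries, against 10367 and 11111 in wild-type libraries of the larger table, and 4580.3 and 5140 (knockout) against 5709 and 4747 (wild type) in the smaller. Its libraries overlapped in both tables, with deposited log2 fold changes of -0.05 ± 0.08 (95% interval -0.22 to 0.11) and -0.08 ± 0.12 (95% interval -0.31 to 0.14).

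Slc40a1, the gene of ferroportin, differed more between the 2 knockout libraries than between the genotypes. In the larger table it had 4289 and 3006 normalised reads in knockout libraries A and B, against 4319 and 5159 in wild-type libraries A and B. In the smaller table it had 2595 and 1712 in the knockout, against 2577 and 2318 in the wild type. Knockout library B was the lowest of the 4 in each table, while library A lay beside the wild type. The authors' deposited log2 fold change was -0.26 ± 0.11 in the larger table (95% interval -0.48 to -0.04, p = 0.0219, DESeq2 adjusted p = 1.00) and -0.13 ± 0.13 in the smaller (95% interval -0.39 to 0.13, DESeq2 adjusted p = 0.999). Without knockout library B, the log2 difference on recovered counts was -0.14 (larger table) and 0.09 (smaller table), against -0.39 and -0.21 with all libraries (limma, chosen after seeing the data).

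Tfrc, the importer gene, was the lowest of the members. It had 354 and 309 normalised reads in knockout libraries A and B, against 286 and 342 in wild-type libraries A and B of the larger table, where the genotypes overlapped. The smaller table had 176 and 179 in the knockout, against 166 and 129.9 in the wild type. The deposited log2 fold changes were 0.04 ± 0.12 and 0.13 ± 0.14, with 95% intervals from -0.19 to 0.28 and from -0.14 to 0.41.

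The ferritin genes, whose chains form the iron storage shell, were the most abundant members in reads and showed no difference that passed. Fth1, the heavy chain gene, had 72117 and 69930.3 normalised reads in knockout libraries A and B, against 75131 and 75998 in wild-type libraries A and B of the larger table. The smaller table had 46348 and 52184 in the knockout, against 55819 and 48257 in the wild type. The knockout libraries lay just below the wild type in the larger table and overlapped in the other, and the deposited log2 fold changes were -0.08 ± 0.08 (95% interval -0.23 to 0.08) and -0.06 ± 0.11 (95% interval -0.28 to 0.15).

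Ftl1, the light chain gene, had 73944 and 70292 normalised reads in knockout libraries A and B, against 72368 and 69126 in wild-type libraries A and B of the smaller table, so the genotypes overlapped. For the larger table, 4 sets of counts matched its printed values, all with a ratio of 1.06, and its libraries cannot be given singly. The deposited log2 fold changes were 0.07 ± 0.08 (95% interval -0.08 to 0.22) and 0.02 ± 0.10 (95% interval -0.18 to 0.23) in the larger and smaller table. Of its 31-base words 64.1% occur in other annotated genes, 54.4% in Ftl1-ps1 alone, so its level is uncertain; for Fth1 the share was 3.2%.

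Among the members with recovered counts, the genotypes did not overlap for 6 of 8 in the larger table, against 38% of 13813 genes there, and for 3 of 9 in the smaller, against 39.3% of 11302 genes. In the larger table Hamp, Hamp2 and Hfe were above and Tmprss6, Slc40a1 and Fth1 below the wild type. In the smaller table Hamp and Tfrc were above and Tmprss6 below. Hamp and Tmprss6 were thus apart, in the same direction, in both tables. The shares of all genes above are for each table alone. The share apart in the same direction in both tables is not given here. Since libraries of the tables did not vary independently, it cannot be taken from those shares. Whether Hamp and Tmprss6 stand out from other genes in this was not tested. The median log2 fold change of the 9 members was 0.04 (larger) and -0.05 (smaller) in the deposited tables, beside 0.00 over all tested genes of each.

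**Figure D3:**
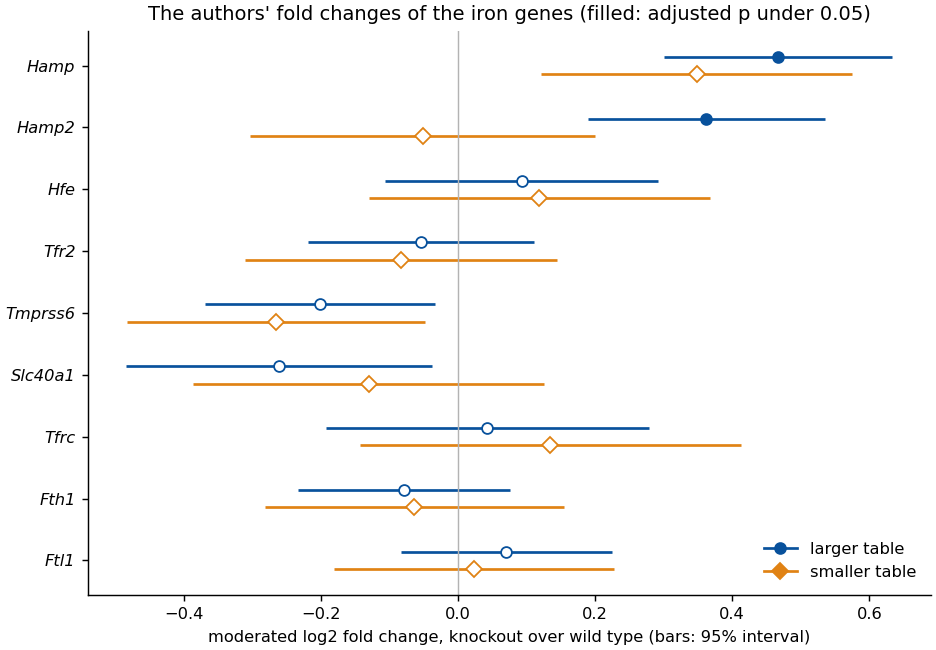
The authors' moderated log2 fold changes, knockout over wild type (x axis), of the 9 iron genes in the larger table (blue circles) and smaller table (orange diamonds), with 95% intervals; filled symbols passed an adjusted p of 0.05. Hamp and Hamp2 of the larger table are filled, the intervals of Hamp and Tmprss6 exclude 0 in both tables, and that of Hamp2 spans 0 in the smaller table.

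Per length, the members spanned over 3 orders of magnitude. In RPKM (reads per kilobase of merged exon, scaled to the table's total), computed here from the mean over the 4 libraries, the larger table ran from Ftl1 at 3022 through Hamp at 1078, Fth1 at 566, Hamp2 at 169.8, Tfr2 at 64.9, Tmprss6 at 63.0, Slc40a1 at 12.5 and Hfe at 8.44 to Tfrc at 1.40. The libraries overlapped between Tfr2 (62.6 to 68.6) and Tmprss6 (55.8 to 69.6), and between Slc40a1 (8.94 to 15.3) and Hfe (8.01 to 9.27). In the smaller table Hamp came first at 1855 and Ftl1 second at 1447, with overlapping libraries, followed by the other 7 in the same order as in the larger table, from Fth1 at 396 to Tfrc at 0.715. The tables were normalised separately, so these levels are set side by side without a test. Transferrin itself could not be read: Trf, one of the main secretory transcripts of liver, had a mean of 0.974 counts in the deposited larger table, and it overlaps 1 annotated gene and shares 63.9% of its words.

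The genotype effect was compared between the tables by a z test of the smaller table's deposited log2 fold change minus that of the larger. Of 11604 genes tested in both, 2 passed, or 0.0172%, and none was a member; 1 member, Hamp2, had an unadjusted p under 0.05. For Hamp2 the difference was -0.41 ± 0.16 (95% interval -0.72 to -0.11, adjusted p = 1.00). For Hamp it was -0.12 ± 0.14 (95% interval -0.40 to 0.16), and for the other 7 members it lay between -0.06 and 0.13. The z values of all genes had an SD of 0.535 where independent tables give 1. With each z divided by that SD, Hamp2 alone of the members passed (adjusted p = 0.00112, 10 genes called). An interaction fit over the 8 recovered libraries with no block gave Hamp2 -0.48 ± 0.18 (limma adjusted p = 1.00) and called no gene, with 126 genes under an unadjusted p of 0.05. With a block for the libraries that deviated together, a pairing taken from the values and not from the labels, the Hamp2 difference was -0.48 ± 0.12 (limma adjusted p = 0.756), and no gene was called, with 668 under an unadjusted p of 0.05.

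The BMP side of hepcidin control was measured in a list of 24 ligands, receptors, SMADs and modifiers, of which 22 and 19 were tested in the larger and smaller table. By the authors' DESeq2 test none passed, and 0 and 1 had an unadjusted p under 0.05; by limma on recovered counts none passed and 1 and 2 were under 0.05. Bmp6, the ligand that responds to liver iron, had 73.0 and 110.04 normalised reads in knockout libraries, against 64.1 and 79.5 in wild-type libraries of the larger table (deposited log2 fold change 0.11 ± 0.11). Fst, an activin and BMP antagonist, was at 0.19 ± 0.11 and Fkbp1a, which holds type I receptors inactive, at 0.08 ± 0.09 in that deposited table. Among receptors of the smaller deposited table, Bmpr2 was at 0.26 ± 0.13 and Acvr2a at 0.18 ± 0.14, and the stress-induced ligand Gdf15 at -0.22 ± 0.12. Hemojuvelin, listed as Hfe2, was at 0.08 ± 0.09 and 0.04 ± 0.12 in the deposited tables. Erfe, the red cell precursors' hormone that lowers hepcidin, had a mean of 0.479 counts in the larger deposited table.

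Genes that BMP and SMAD signals induce did not pass either. Of 8 such genes 7 were tested in each table, with medians of 0.02 and 0.13 in the deposited larger and smaller table, none called and none under an unadjusted p of 0.05 by DESeq2; limma called none, with 2 and 0 under 0.05. Atoh8, a transcription factor gene, had 1284 and 1042 normalised reads in knockout libraries, against 931 and 979 in wild-type libraries of the larger table, at a deposited log2 fold change of 0.21 ± 0.11. Id3 was at 0.20 ± 0.11 and the inhibitory Smad6 at -0.22 ± 0.12 in the same deposited table. In the smaller deposited table Smad7, Id3 and Id2 were at 0.19 ± 0.14, 0.16 ± 0.13 and 0.16 ± 0.13. These members thus lay on both sides of 0 in the larger table, and 5 of 7 lay above 0 in the smaller.

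On the interleukin 6 and STAT3 side, 14 and 13 of 17 genes were tested and none passed, with 3 and 1 under an unadjusted p of 0.05 by DESeq2 and none called by limma, with 3 and 1 under 0.05. Socs3, a feedback inhibitor that STAT3 induces, had 355 and 274 normalised reads in knockout libraries, against 247 and 217 in wild-type libraries of the larger table, and 217 and 151 in knockout, against 123 and 113 in wild-type libraries of the smaller. Its libraries did not overlap in either table, and the deposited log2 fold changes were 0.24 ± 0.12 and 0.29 ± 0.14 (DESeq2 adjusted p = 1.00 and 0.999). Il22ra1, a receptor of interleukin 22, was at 0.27 ± 0.11 and Il6st, the shared receptor chain gp130, at -0.20 ± 0.10 in the larger deposited table. Stat3 was at 0.16 ± 0.12 and Cebpa, a liver transcription factor that acts on Hamp, at -0.18 ± 0.11 in the smaller deposited table.

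Acute phase genes, not all of which the same cytokine raises, held no call among 18 tested in each table. By DESeq2, 3 had an unadjusted p under 0.05 in each table. By limma, none of 13 and 17 was called, with 3 and 2 under 0.05. The ones with the smallest p were lower in the knockout. Saa4, a serum amyloid gene, had 4706 and 5234 normalised reads in knockout, against 6846 and 6137 in wild-type libraries of the larger table, and the deposited log2 fold changes were -0.32 ± 0.09 and -0.35 ± 0.12 (DESeq2 adjusted p = 0.136 and 0.366). Crp, C-reactive protein, was at -0.30 ± 0.10 and -0.26 ± 0.11 in the deposited tables. Itih3 in the larger and Orm3 in the smaller deposited table were at 0.30 ± 0.11 and 0.26 ± 0.13. The inducible Saa1, with means of 851 and 986 counts, was at 0.02 ± 0.07 and 0.01 ± 0.09 in the deposited tables. Its libraries differed widely within each genotype. The larger table had 529 and 1280 normalised reads in knockout, against 1101 and 492 in wild-type libraries. The smaller table had 598 and 1452 in knockout, against 641 and 1253 in wild-type libraries. The moderated fold change and its small SE do not show this spread.

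Carriers and scavengers of iron and haem gave no call among 21 and 20 tested of 25, with 2 and 1 under an unadjusted p of 0.05 by DESeq2; limma called none, with 4 and 2 under 0.05. Steap2, a ferrireductase gene, was at 0.32 ± 0.12 and 0.19 ± 0.14 in the deposited larger and smaller table, and Flvcr2, a haem transporter gene, at 0.22 ± 0.12 and 0.23 ± 0.14. Steap4 was at -0.23 ± 0.10 in the larger deposited table and Cd163, the macrophage receptor for haptoglobin-bound haemoglobin, at 0.30 ± 0.14 in the smaller. Slc39a14, the liver's importer of iron not bound to transferrin, was at -0.17 ± 0.10 and -0.15 ± 0.12 in the deposited tables.

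Intracellular sensing and use of iron gave no call among 26 and 24 tested of 27, with 1 under an unadjusted p of 0.05 in each table by DESeq2; limma called none, with 3 and 0 under 0.05. Epas1, which encodes the hypoxia-inducible factor HIF-2α, had 7787 and 7432 normalised reads in knockout, against 8612 and 8816 in wild-type libraries of the larger table, and was at -0.17 ± 0.08 and -0.20 ± 0.11 in the deposited tables. Egln1, whose product marks such factors for breakdown, was at -0.16 ± 0.09 and Bola2, an iron chaperone gene, at 0.18 ± 0.11 in the larger deposited table. Ncoa4, the receptor that takes ferritin to the lysosome, was at 0.16 ± 0.11 and Blvrb, a biliverdin reductase, at -0.23 ± 0.12 in the smaller. The genes of the iron regulatory proteins, Aco1 and Ireb2, were at -0.06 ± 0.08 and -0.07 ± 0.09 in the larger deposited table. In the smaller deposited table Aco1 was at -0.10 ± 0.11 and Ireb2 at 0.09 ± 0.12.

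**Figure D4:**
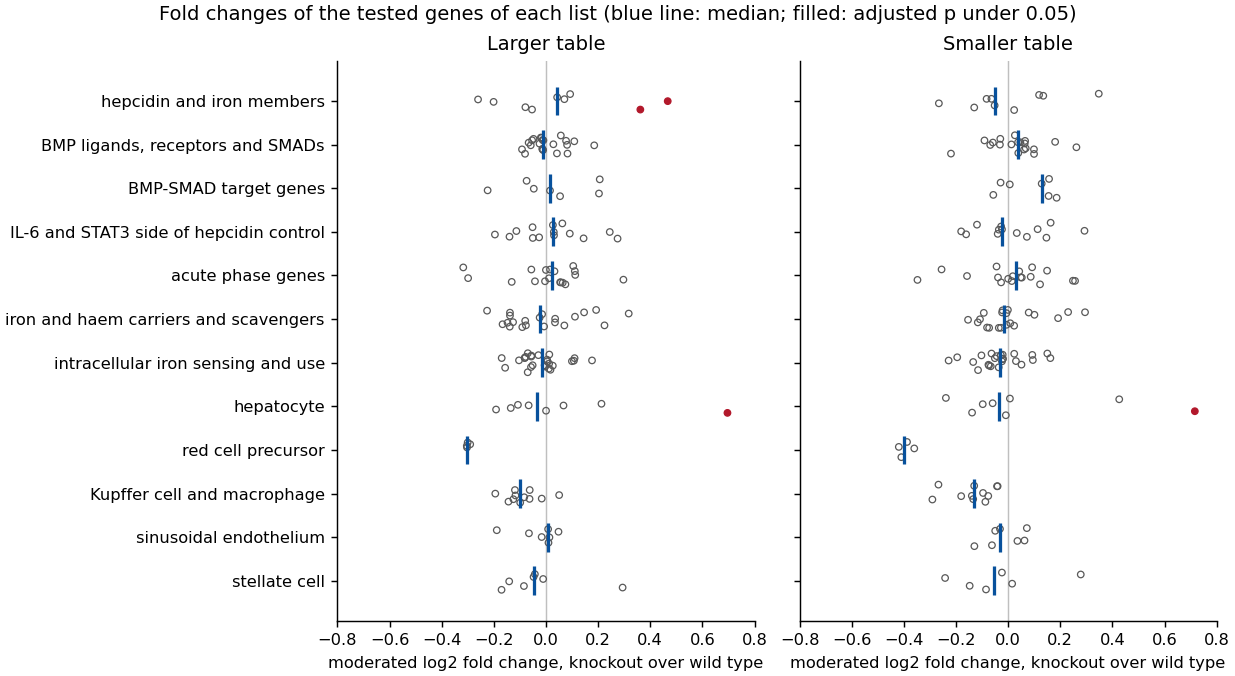
Moderated log2 fold changes, knockout over wild type (x axis), of every tested gene of each list in the authors' larger table (left) and smaller table (right); blue lines are medians and filled points passed an adjusted p of 0.05. Filled points are Hamp and Hamp2 in the larger table and Tat, a hepatocyte marker, in both, and the 4 globin genes of the red cell list all lie below -0.29 in the larger table and at or below -0.36 in the smaller.

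Markers of the cells that a liver sample holds were set beside these values. All 8 hepatocyte markers were tested, with medians of -0.03 in each deposited table, and 1 passed: Tat, tyrosine aminotransferase, at 0.70 ± 0.11 and 0.72 ± 0.12 in the deposited tables. Ttr, transthyretin, was at -0.19 ± 0.08 and -0.24 ± 0.11, and Cps1, a urea cycle enzyme, at 0.21 ± 0.12 and 0.43 ± 0.13 in the deposited tables. Globin genes (Hbb-bs, Hbb-bt, Hba-a1 and Hba-a2) had lower values in the knockout, beside the higher Hamp values. Their summed normalised reads were 9079 and 11224 in knockout libraries, against 13958 and 12653 in wild-type libraries of the larger table, and 10139 and 13109 in knockout, against 15418 and 17837 in wild-type libraries of the smaller. The knockout libraries lay below the wild-type libraries in both tables, with mean ratios of 0.763 and 0.699. No globin gene passed (median deposited log2 fold change -0.30 and -0.40; DESeq2 adjusted p 0.319 to 0.461 in the larger and 0.170 to 0.366 in the smaller), and limma called none, while all 4 had an unadjusted p under 0.05 in each table by either tool. Of the other red cell markers, Slc4a1 was too low for the authors' test and Alas2 was not analysed here.

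Kupffer cell and macrophage markers gave no call among 11 tested. By DESeq2 and by limma, 0 and 2 had an unadjusted p under 0.05. Over all tested genes, 7152 of 14180 in the larger and 5797 of 11661 in the smaller deposited table lay below 0. The macrophage markers lay mostly below 0, in 10 of 11 and 11 of 11 (medians -0.10 and -0.13). Summed over the 10 with recovered counts, which leave out Marco, they had 7155 and 7724 normalised reads in knockout, against 7226 and 8821 in wild-type libraries of the larger table, and 4616 and 5558 in knockout, against 6348 and 5366 in wild-type libraries of the smaller, so the genotypes overlapped. C1qc and C1qb, complement genes that Kupffer cells express, were at -0.29 ± 0.13 and -0.27 ± 0.13 in the smaller deposited table, and Marco at -0.10 ± 0.07. In the larger deposited table Csf1r, a macrophage growth factor receptor, was at -0.19 ± 0.12, C1qb at -0.14 ± 0.11 and Marco at -0.06 ± 0.05. Cd163, a macrophage gene outside this list, lay above 0, at 0.19 ± 0.12 and 0.30 ± 0.14 in the deposited larger and smaller table. Macrophages are a main site of Slc40a1 in liver, and their part and that of the globins in the values of Slc40a1 and Hamp were not tested. Markers of sinusoidal endothelium, which makes BMP ligands in liver, summed to 2218 and 2179 in knockout, against 2100.5 and 2409 in wild-type libraries of the larger table. Stellate cell markers summed to 4105 and 4294 in knockout, against 4420 and 4215 in wild-type libraries of the larger table, so the genotypes overlapped for both lists. No marker of either list passed in either table by DESeq2 or limma. Rgs5, a pericyte gene, at 0.29 ± 0.10 and 0.28 ± 0.13 in the deposited tables, had an unadjusted p under 0.05 by DESeq2, and limma had 3 and 2 of the 2 lists' genes under it. Dcn was at -0.17 ± 0.09 and -0.15 ± 0.12 in the deposited tables, Reln at -0.14 ± 0.12 in the larger and Colec11 at -0.24 ± 0.13 in the smaller. Among endothelial genes, Pecam1 was at -0.19 ± 0.12 and Lyve1 at 0.05 ± 0.12 in the larger deposited table, Kdr at 0.07 ± 0.14 and Stab2 at 0.06 ± 0.12 in the smaller, and Fcgr2b at -0.07 ± 0.11 and -0.13 ± 0.14.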

How the data were processed

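Total RNA from liver or purified ER was sequenced on libraries made by an Illumina protocol, per the labels' protocols. The submitters' processing notes list STAR 2.3.0e, DESeq2 1.6.3 and mm10 with no role for each; annotation, counter, strand setting and treatment of multiply mapping reads were not given in the sources used here. In 2 tables the authors deposited, per gene, a mean signal (counts over size factors), a log2 fold change, its SE (also log2), a Wald score, a p-value and an adjusted p-value, per the file headers. The deposited score equalled the fold change divided by the SE, and the adjusted p-values equalled a Benjamini-Hochberg adjustment over the tested genes.

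The planned count test needs values per library, which the files do not print, so the authors' Wald test is the main result and an adjusted p of 0.05 its threshold. The members and gene lists were chosen with earlier results of these data known. Named genes are the members, every gene of another list that passed, the 3 of each list with the largest Wald score in either direction per table, 3 protein-coding genes on each side of the hepcidin pair, and some genes added after their values were seen: hemojuvelin, Erfe, Trf, Slc39a14, Saa1, Aco1 and Ireb2. Identifiers were matched to GENCODE M21 (GRCm38) for 23484 of 23634 and 21080 of 21201 genes. Promoters came from RefSeq (GRCm38.p6), with 7 of 9 members in that table.

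Counts per library were recovered after seeing the data. A gene's mean is the sum over 4 libraries of whole reads times the value of 1 read, which genes with a single read show; the sets of whole counts that give the printed mean were listed, and the set whose moderated fit also gave the printed fold change and standard error within 1e-06 was kept where it was unique. The search covered tested genes with a mean up to 30000 and the ferritins. For the members with a unique set, the standard error was matched within 6.60e-09, and no other set came nearer than 7.00e-06. The search was tested on simulated data of 200 genes per table with means under 30000. It returned 198 (larger) and 200 (smaller), all with the simulated counts. The simulated fold changes and standard errors came from the same fit that the search uses. The ferritins lie above that mean, were searched over a narrower range of counts and were not simulated. A set is unique only within the range of counts searched. Recovered counts were divided by relative depth, and log2(value + 1) was tested with limma 3.58.1 (trend) in R 4.3.3. The sides come from the sign of the authors' fold change. Since no label ties the libraries of a group to separate mice, their spread may be technical, and p-values measure that spread alone.
Python 3.11.15, pandas 2.3.3, numpy 2.4.6, scipy 1.17.1 and sympy 1.14.0 were used.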

Additional observations from a re-analysis of the deposited data

How the results depend on the processing

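Of the 9 members, 2 passed in the larger table with no filter on the mean, without genes under a mean of 100, or at an adjusted p under 0.10. With Bonferroni adjustment 1 passed, Hamp (Hamp2 0.573), and 24 genes in all against 42. With genes that share over 25% of their words left out, 0 of the remaining 6 passed, because Hamp, Hamp2 and Ftl1 are then not tested. On recovered counts limma passed 0 members and 1 gene. In the smaller table the members passing were 0 under each of these settings, with 13 genes under Bonferroni and 1 under limma against 31. Between the tables, 1 member passed with z divided by its SD and 0 otherwise, with 10 genes against 2. Leaving out 1 library at a time on recovered counts gave 0 to 0 members in either table, with 1 to 66 genes in the larger and 4 to 46 in the smaller; a lone library is then assumed to vary like the others. Scaling the normalised recovered counts further by their upper quartile, also added after seeing the data, gave Hamp 0.56 in the larger table. Division by relative depth alone gave 0.54. The upper quartile then differed by -0.01 on the log2 scale, knockout minus wild type, in each table. No paired analysis was possible between knockout and wild type within a table because the recovered libraries carry no replicate numbers; between the tables, the replicate block taken from the deviations called 0 members (Hamp2 0.756). The scaling of edgeR against that of DESeq2 was not run. Depth limits Tfrc and the low list genes, whose moderated fold changes are drawn towards 0. Those of genes with widely differing libraries, such as Saa1, are drawn towards 0 as well.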
